A study of Mus musculus with 4 samples.

Results

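The genes described here are 10 early response genes of the mouse draining lymph node. They are the FOS genes Fos and Fosb, the JUN genes Jun, Junb and Jund, the transcription factor genes Egr1 and Nr4a1, and Ier2, Dusp1 and Zfp36. They were chosen by name, with earlier results of these data known, and make up 10 of the 32285 genes counted. Lymph node cells came from wild-type C57BL/6 mice. The EV group received a total of 100 μg of EVs, small vesicles released by induced pluripotent stem cells (iPSCs), injected subcutaneously. The study describes its iPSC EVs as human and does not name the line used for these mice. The Control group received PBS according to the study's methods, whereas its labels record no treatment. The study's design gives day 5 for the harvest, whereas the labels record 24 h. Each group has 2 libraries, and the number of mice behind a library is not given. The study names the 2 libraries of a group biological replicates, so the spread between them may hold both biological and technical variation.

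Immediate early genes are transcribed within minutes of a stimulus, without new protein synthesis, because their activators are already present in the resting cell. In lymphocytes they respond to antigen receptors, cytokines and growth factors, and also to stress, including the dissociation of a tissue. FOS and JUN proteins pair through leucine zippers to form AP-1, a dimer that binds DNA and drives activation genes. EGR1 and NR4A1 are transcription factors induced by antigen receptor signals. DUSP1 is a phosphatase that inactivates MAP kinases, and ZFP36 binds AU-rich mRNAs and promotes their decay, so both dampen the response.

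The windows before the transcription start sites were searched for sites of factors known to induce early genes, among them the CRE, to which CREB and ATF proteins bind. RefSeq start sites on GRCm38.p6, which is mm10, were found for 8 of the 10 genes, all except Egr1 and Ier2. Each window holds 250 bases before and 50 after the start site, and motifs were searched on both strands. The full CRE (TGACGTCA) was found in 1 of the 8 windows, that of Dusp1, against 1.79% of all 32851 windows. A CArG box, the site of serum response factor, was found in 1 window, that of Zfp36, against 1.63% of all windows. The AP-1 site (TGACTCA) and the EGR site (GCGTGGGCG) were found in 0 of the 8 windows, against 5.20% and 0.612% of all windows. The core TGACG, which also lies within the full CRE, was found in 5 of the 8 windows against 20.8% of all windows. This core was added after the windows had been seen. The 4 windows that hold the core without the full CRE are shown as the 250 bases before the start site, 5′ to 3′ on the strand of the gene. They are Fos (chr12:85473640-85473889, plus strand), Fosb (chr7:19310046-19310295, minus strand), Junb (chr8:84978749-84978998, minus strand) and Nr4a1 (chr15:101266596-101266845, plus strand). Capitals mark TGACG, or its complement CGTCA on the other strand.
Fos: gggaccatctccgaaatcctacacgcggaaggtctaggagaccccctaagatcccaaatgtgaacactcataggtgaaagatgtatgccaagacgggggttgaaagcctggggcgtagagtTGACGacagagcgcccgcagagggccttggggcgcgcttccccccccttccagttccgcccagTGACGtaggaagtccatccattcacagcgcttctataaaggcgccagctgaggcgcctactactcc
Fosb: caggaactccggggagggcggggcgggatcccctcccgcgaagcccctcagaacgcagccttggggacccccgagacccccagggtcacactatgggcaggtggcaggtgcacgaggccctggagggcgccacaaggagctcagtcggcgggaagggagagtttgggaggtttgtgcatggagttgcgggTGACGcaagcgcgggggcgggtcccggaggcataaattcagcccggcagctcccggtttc
Junb: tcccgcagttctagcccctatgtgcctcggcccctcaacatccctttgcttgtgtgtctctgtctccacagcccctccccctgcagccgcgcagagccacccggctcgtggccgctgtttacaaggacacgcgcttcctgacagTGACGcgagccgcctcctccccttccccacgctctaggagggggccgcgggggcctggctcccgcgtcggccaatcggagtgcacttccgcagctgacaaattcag
Nr4a1: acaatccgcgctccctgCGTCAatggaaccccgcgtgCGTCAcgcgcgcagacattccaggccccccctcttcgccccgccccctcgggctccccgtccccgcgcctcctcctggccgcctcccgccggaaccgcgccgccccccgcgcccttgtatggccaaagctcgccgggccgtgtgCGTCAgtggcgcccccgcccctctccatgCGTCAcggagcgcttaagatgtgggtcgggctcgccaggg
The core lies 129 and 66 bases before the start site of Fos, 60 bases before that of Fosb and 106 bases before that of Junb. In Nr4a1, whose window lies within the annotated gene before an inner start site, it occurs 4 times. The windows of Dusp1 and Zfp36 also lie within their annotated genes. That of Jund ends at position 70697788, before its annotated gene begins at 70698949. A match is a run of letters and not a measured binding site. Bases outside the windows were not searched, so a window without a match does not show that its gene lacks the site.

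In the GENCODE annotation of the same build, the genes are protein coding and lie on chromosome 12 (Fos), chromosome 7 (Fosb and Zfp36), chromosome 4 (Jun), chromosome 8 (Junb, Jund and Ier2), chromosome 18 (Egr1), chromosome 15 (Nr4a1) and chromosome 17 (Dusp1). Jun, Junb, Jund, Zfp36 and Dusp1 overlap a gene on the other strand, for example Junb with Prdx2. The use of strand in counting is not given in the sources used here. Whether reads of such partners entered the counts was not tested. Dusp1 also overlaps AC122252.4 and AC122252.1 on its own strand, and its counts are uncertain for that reason.

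UMIs, the molecules counted once each, were summed over the cells of 4 classes in each library. Classes were gated by marker UMIs, none of them a UMI of the 10 genes. B cells had a Cd79a UMI and no Cd3e UMI. CD4 T cells had Cd3e and Cd4 UMIs and none of Cd8a or Cd79a, and CD8 T cells had Cd3e and Cd8a UMIs and none of Cd4 or Cd79a. The macrophage gate took cells with at least 2 UMIs of C1qa and C1qb and no Cd3e UMI. The B cell and macrophage gates did not exclude each other. Cells that passed both numbered 5 and 10 in Control libraries 1 and 2 and 20 and 16 in EV libraries 1 and 2. From 34323 barcodes, 94.2% to 97.4% per library passed the filters (7891 to 8529 cells), and 115 barcode sequences occurred in more than 1 library. Control libraries 1 and 2 and EV libraries 1 and 2 held 3016, 2503, 4866 and 4301 B cells, 1383, 1624, 923 and 1267 CD4 T cells, 1682, 1861, 1003 and 1355 CD8 T cells, and 42, 80, 91 and 67 cells of the macrophage gate. B cell markers summed to 12249 to 13856 CPM (UMIs per 1000000 UMIs) in the B cell gate and 16.9 to 38.4 CPM in the T cell gates. T cell markers summed to 4322 to 5041 CPM in the T cell gates and 47.8 to 96.2 CPM in the B cell gate. The macrophage gate held 2927 to 6061 CPM of B cell markers beside 10806 to 23230 CPM of macrophage markers, so it did not hold macrophage RNA alone. The 10 genes together made up 0.0617% to 0.149% of the UMIs of the lymphocyte gates.

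The genes had different class patterns. Levels are given as CPM of the class sum. They count 3′ tags, so they do not compare 1 gene with another. They are scaled within each class, over the genes tested in it. The log2 differences between classes come from a fit that scaled the sums of the 4 classes together, so they can differ from ratios of the CPM. Fosb, whose protein pairs with JUN, was highest in B cells among the lymphocytes. Its B cell level was 39.3 and 42.8 CPM in the Control group and 28.6 and 19.0 CPM in the EV group, against 0.791 to 4.44 CPM in CD4 T cells. Its level in B cells exceeded that in CD4 T cells by 3.17 on the log2 scale (SE 0.20, adjusted p = 3.75e-11). Fos (33.9 to 47.4 CPM in B cells, 8.80 to 16.5 CPM in CD4 T cells), Zfp36, Nr4a1 and Jund were also higher in B cells, by 1.51, 1.23, 0.59 and 0.47. Egr1, Dusp1 and Junb were lower in B cells than in CD4 T cells, with log2 differences of -1.07, -0.51 and -0.40. These level fits took the Control and EV libraries together. In the Control libraries Egr1 overlapped between the classes, with 21.99 and 17.3 CPM in B cells and 21.4 and 29.8 CPM in CD4 T cells. In the EV libraries it measured 11.7 and 11.3 CPM in B cells and 38.3 and 26.0 CPM in CD4 T cells. In all, 8 of 10 genes differed in level between B and CD4 T cells, where 65.8% of all genes did and 27.6% were higher in B cells.

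CD8 T cells had lower levels than CD4 T cells for 6 of 10 genes, where 28.9% of all genes differed in either direction and 13.5% were higher in CD8 T cells. The lower genes were Nr4a1 (-1.39), Jun (-0.55), Zfp36 (-0.51), Dusp1 (-0.49), Junb (-0.48) and Jund (-0.34). Nr4a1 measured 12.5 to 23.0 CPM in CD4 T cells and 3.44 to 7.48 CPM in CD8 T cells, without overlap over the 4 libraries of each class. The log2 differences of Fosb, Fos, Ier2 and Egr1 between CD8 and CD4 T cells were -0.06, -0.19, -0.13 and -0.41 and did not pass. The calls of Dusp1 between classes were the least stable. The calls against CD8 T cells and against B cells were both lost in cells thinned to an equal number of UMIs each. That against CD8 T cells was also lost under RLE factors (-0.48, adjusted p = 0.0503). Over the alternatives that kept all libraries, the adjusted p of edgeR reached 0.44 for CD8 T cells and 0.16 for B cells. With a library left out, the log2 differences from CD4 T cells ranged from -0.63 to -0.33 in CD8 T cells and from -0.60 to -0.32 in B cells. No call is drawn from fits that leave 1 library in a group. CD8 T cells held more UMIs per cell (medians of 7397 to 9871) than CD4 T cells (6046 to 8339) or B cells (4142 to 5811).

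**Figure D1:**
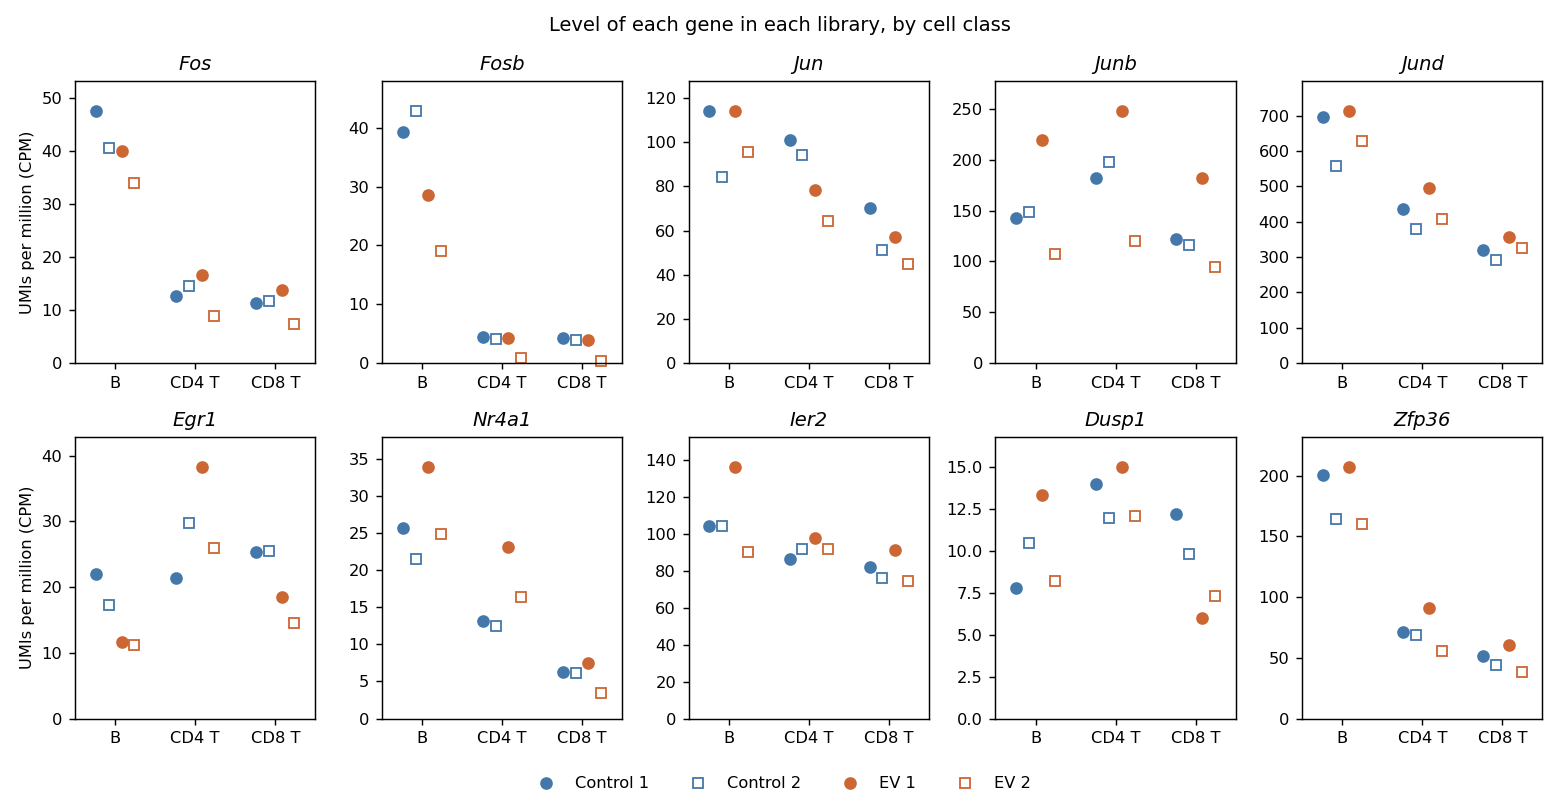
Level of each of the 10 genes (vertical axis, CPM of the class sum, starting at 0) in B, CD4 T and CD8 T cells (horizontal axis). Each point is 1 library; blue marks Control and orange EV, filled circles library 1 and open squares library 2. Fos, Fosb and Zfp36 sit highest in B cells, and EV library 2 lies below EV library 1 in nearly every panel.

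EV and Control libraries were compared within each class by edgeR's quasi-likelihood test over all genes, and a gene was called at an adjusted p under 0.05. In B cells, 1 of 10 genes was called, Egr1, which fell. Among all genes tested in B cells, 2.55% were called and 0.98% fell. Again 1 of 10 was called in CD8 T cells, Egr1, which was lower, where 2.2% of all genes were called and 0.855% fell. For CD4 T cells 0 of 10 were called at an adjusted p under 0.05 (2 had an unadjusted p under 0.05, and DESeq2 called 0), where 1.09% of all genes were called and 0.302% fell. The medians of the log2 fold changes of the 10 genes were 0.09 in B cells, 0.06 in CD4 T cells and -0.19 in CD8 T cells, against -0.0016, 0.00072 and 0.00033 for all genes tested. Control and EV libraries were fully separated, without overlap, for 3 of 10 genes in each of the 3 classes. Over all genes tested this occurred for 51.8% in B cells, 49.4% in CD4 T cells and 49.7% in CD8 T cells. Read against these shares, a separation of 3 of 10 genes is no result about them.

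**Figure D2:**
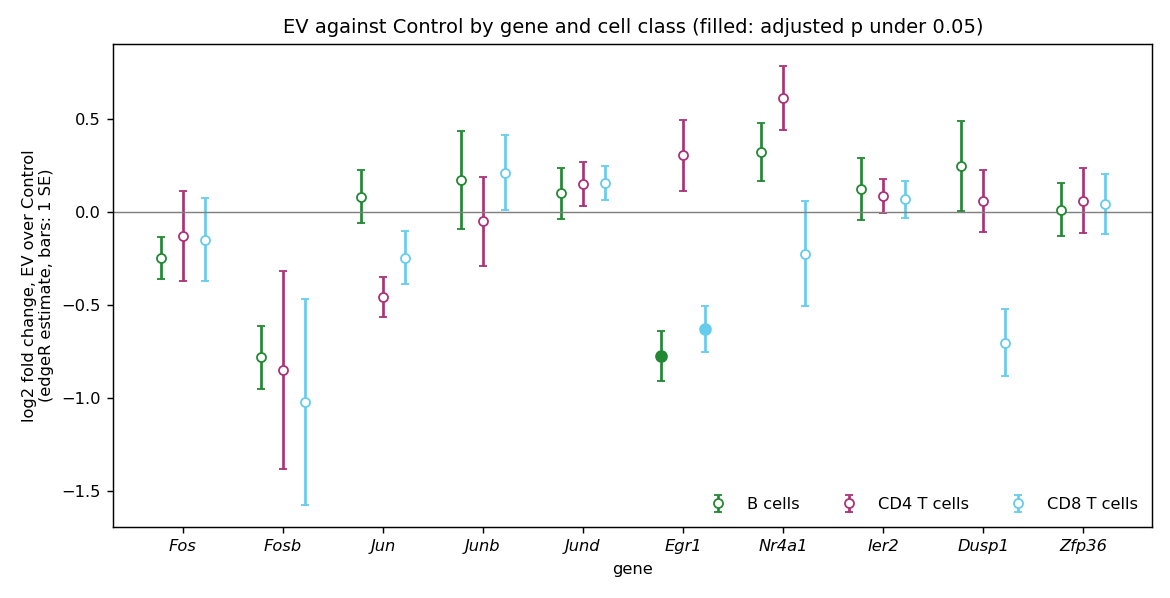
Log2 fold change of EV over Control (vertical axis, edgeR estimate) for each gene (horizontal axis) in B cells (green), CD4 T cells (purple) and CD8 T cells (light blue). Bars are 1 SE, n = 2 libraries a group, and filled points passed an adjusted p under 0.05; these are Egr1 in B cells (-0.78) and in CD8 T cells (-0.63).

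Egr1 encodes a zinc finger transcription factor induced by antigen receptor and MAP kinase signals. In B cells it measured 21.99 and 17.3 CPM in the Control libraries and 11.7 and 11.3 CPM in the EV libraries, from 235 to 357 UMIs a library. Both EV libraries were lower than both Control libraries. The log2 fold change was -0.78 (SE 0.13, adjusted p = 0.026). It was -0.59 without Control library 1 and -0.93 without Control library 2. It was -0.80 without EV library 1 and -0.75 without EV library 2. The spread of the group left with 1 library cannot be measured in such fits, so no call is drawn from them. Egr1 in CD8 T cells measured 25.4 CPM in each Control library and 18.5 and 14.6 CPM in EV libraries 1 and 2. Both EV libraries were again lower, and the log2 fold change was -0.63 (SE 0.13, adjusted p = 0.025). This call was lost with DESeq2 (-0.62, adjusted p = 0.070), with the 5% mitochondrial limit (-0.59, adjusted p = 0.084) and in cells thinned to 1000 UMIs (-0.78, adjusted p = 0.26), and thinning also ended that in B cells (-0.76, adjusted p = 0.061). Egr1 in CD4 T cells measured 21.4 and 29.8 CPM in the Control libraries and 38.3 and 26.0 CPM in the EV libraries. The groups overlapped there, with a log2 fold change of 0.30 (SE 0.19, adjusted p = 0.45).

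The FOS genes had negative log2 fold changes in B cells, and neither was called by edgeR. Fos, whose protein is a classical partner of JUN in AP-1, measured 47.4 and 40.4 CPM in Control B cells and 40.0 and 33.9 CPM in EV B cells. EV library 1 lay only just below Control library 2, and the log2 fold change was -0.25 (SE 0.12, adjusted p = 0.28). CD4 T cells had Fos levels of 12.7, 14.4, 16.5 and 8.80 CPM in Control libraries 1 and 2 and EV libraries 1 and 2. The latter lay on either side of the Control libraries. CD8 T cells gave, in the same order, 11.3, 11.7, 13.8 and 7.42 CPM, and again EV library 1 was highest and EV library 2 lowest.

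Fosb had a log2 fold change of -0.78 in B cells (SE 0.17, adjusted p = 0.052). It did not pass, and of the values that did not it lay nearest the threshold. The call depended on the setting. Fosb passed with DESeq2 (adjusted p = 0.0019), in thinned cells (-0.82, adjusted p = 0.012) and with a 5% mitochondrial limit and no upper limits (-0.84, adjusted p = 0.023). It also passed without the filter on low counts (adjusted p = 1.15e-09), with the replicate number as a block (5.04e-06) and in B cells with an Ighd UMI (0.0495). It did not pass under RLE factors (adjusted p = 0.0523) or library sizes without abundant genes (0.0514). Nor did it with a ribosomal filter (0.0517), with stricter gates (0.068) or in B cells without an Ighd UMI (0.55). Both EV libraries (28.6 and 19.0 CPM) were below both Control libraries (39.3 and 42.8 CPM). With EV library 1 left out, the log2 fold change was -1.11, and with EV library 2 left out it was -0.52. It was -0.84 without Control library 1 and -0.72 without Control library 2. In such fits the lone library is assumed to vary like those of the other group, so no call is drawn from them. In T cells Fosb was low, and 1 library stood apart. Over CD4 T cells 40, 49 and 33 UMIs were counted in Control libraries 1 and 2 and EV library 1, and 8 UMIs in EV library 2 (4.44, 4.16, 4.20 and 0.791 CPM). Over CD8 T cells the UMIs were 56, 66, 40 and 5 (4.24, 3.93, 3.94 and 0.382 CPM). EV library 1 was thus at the level of the Control libraries, and EV library 2 was lower in both T cell classes. The log2 fold changes, -0.85 in CD4 (SE 0.53) and -1.02 in CD8 T cells (SE 0.55), rest on EV library 2. Without EV library 1 they were -2.41 and -3.38, and without EV library 2 they were -0.03 and -0.05. No call is drawn from these fits either.

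Of the JUN genes, Jun separated the groups in CD4 T cells. JUN is the AP-1 subunit that binds DNA as a dimer with FOS, with itself or with ATF proteins. Jun in CD4 T cells measured 101 and 94.2 CPM in the Control libraries and 78.2 and 64.5 CPM in the EV libraries. Both EV libraries were lower, with a log2 fold change of -0.46 (SE 0.11, adjusted p = 0.071). Jun passed with the replicate number as a block (adjusted p = 0.00044) and without the filter on low counts (adjusted p = 0.0015). Of all genes, 6.6% and 3.89% passed there. Jun did not pass under the other alternatives that kept all libraries. The log2 fold change was -0.59 without EV library 1 and -0.32 without EV library 2. It was -0.40 without Control library 1 and -0.50 without Control library 2. Such fits cannot measure the spread of the group left with 1 library, so no call is drawn from them. In B cells Jun measured 114 and 84.2 CPM against 114 and 95.6 CPM, with overlap and a log2 fold change of 0.08 (SE 0.14). CD8 T cells held 70.1 and 51.1 CPM against 57.3 and 44.8 CPM, also with overlap (-0.25, SE 0.14).

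Junb encodes a JUN protein with a role in T helper cell differentiation. In B cells it measured 143 and 149 CPM in the Control libraries, 220 CPM in EV library 1 and 108 CPM in EV library 2. For CD4 T cells the same order gave 182, 197, 248 and 120 CPM, and in CD8 T cells 122, 116, 182 and 94.8 CPM. In all 3 classes EV library 1 was the highest and EV library 2 the lowest, with the Control libraries close together between them. The log2 fold changes over both EV libraries were 0.17, -0.05 and 0.21 (SE 0.26, 0.24 and 0.20). The sign of the Junb fold change followed the EV library used. In B cells it was 0.59 without EV library 2 and -0.43 without EV library 1. In CD4 T cells it was -0.65 without EV library 1 and 0.39 without EV library 2. Such fits cannot measure the spread of the EV group, so no call is drawn from them.

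Jund, the JUN gene that resting cells already express, measured 696 and 556 CPM in Control B cells and 712 and 628 CPM in EV B cells. It measured 435 and 379 CPM against 496 and 407 CPM in CD4 T cells. In both classes the groups overlapped. CD8 T cells held 321 and 293 CPM in the Control libraries and 357 and 326 CPM in the EV libraries, which lay just above, with a log2 fold change of 0.15 (SE 0.09, adjusted p = 0.39).

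Nr4a1 encodes the orphan nuclear receptor NUR77, a reporter of antigen receptor signals. CD4 T cells held 13.1 and 12.5 CPM in the Control libraries and 23.0 and 16.3 CPM in the EV libraries. Both EV libraries were higher, with a log2 fold change of 0.61 (SE 0.17, adjusted p = 0.12). Nr4a1 passed with the replicate number as a block (adjusted p = 0.0054) and without the filter on low counts (adjusted p = 0.0046). It did not pass under the other alternatives that kept all libraries. The log2 fold change was 0.85 without EV library 2 and 0.36 without EV library 1. It was 0.65 without Control library 1 and 0.58 without Control library 2. Such fits cannot measure the spread of the group left with 1 library, so no call is drawn from them. In B cells Nr4a1 measured 25.6 and 21.4 CPM against 33.9 and 24.9 CPM, and the groups overlapped (0.32, SE 0.16, adjusted p = 0.30). CD8 T cells held 6.29 and 6.14 CPM against 7.48 and 3.44 CPM, with the EV libraries on either side of the Control libraries.

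Ier2 encodes a small nuclear protein. Its B cell level was 104 CPM in each Control library, 136 CPM in EV library 1 and 90.3 CPM in EV library 2. CD4 T cells gave 86.6 and 92.2 CPM against 97.8 and 92.2 CPM. The EV libraries lay above the Control libraries there, EV library 2 only just. The CD8 T cell values were 82.2, 76.1, 91.4 and 74.7 CPM, with overlap. Its log2 fold changes were 0.12, 0.09 and 0.07 in B, CD4 T and CD8 T cells (SE 0.17, 0.09 and 0.10).

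Dusp1 and Zfp36 are the genes that dampen the response. In CD8 T cells Dusp1 measured 12.2 and 9.83 CPM in the Control libraries and 6.00 and 7.34 CPM in the EV libraries, from 61 to 165 UMIs. Both EV libraries were lower, with a log2 fold change of -0.70 (SE 0.18, adjusted p = 0.065). Dusp1 passed with the replicate number as a block (adjusted p = 0.0022) and without the filter on low counts (adjusted p = 0.0033). It did not pass under the other alternatives that kept all libraries. The log2 fold change was -0.86 without Control library 2 and -0.55 without Control library 1. It was -0.57 without EV library 1 and -0.86 without EV library 2. Such fits cannot measure the spread of the group left with 1 library, so no call is drawn from them. Dusp1 in CD4 T cells measured 14.0, 11.97, 15.02 and 12.1 CPM and in B cells 7.81, 10.5, 13.3 and 8.20 CPM, with overlap in both. Zfp36 measured 200 and 164 CPM against 207 and 160 CPM in B cells, 71.1 and 68.9 CPM against 90.9 and 56.0 CPM in CD4 T cells, and 51.4 and 43.7 CPM against 60.5 and 38.0 CPM in CD8 T cells. EV library 1 was highest and EV library 2 lowest in all 3 classes, and the log2 fold changes were 0.01, 0.06 and 0.04.

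The difference between the EV libraries recurred over the 10 genes. EV library 2 was below EV library 1 for 10 of 10 genes in B cells, 10 of 10 in CD4 T cells and 9 of 10 in CD8 T cells, the exception being Dusp1. Over all genes tested, EV library 2 was below EV library 1 for 50.6%, 51.1% and 50.8%. Control library 2 was below Control library 1 for 6, 6 and 8 of the 10 genes. The medians of the log2 ratio of EV library 2 to EV library 1 were -0.41, -0.53 and -0.51 over the 10 genes, against -0.0023, -0.0067 and -0.0048 over all genes. With EV library 1 left out, the median log2 fold changes of the 10 genes were -0.20, -0.20 and -0.49 in B, CD4 T and CD8 T cells. Those of all genes in the same fits were -0.014, -0.0096 and -0.0088. With EV library 2 left out, the medians of the 10 genes were 0.19, 0.29 and 0.21, against -0.0082, -0.0070 and -0.0091 for all genes. The classes of a library share their suspension and run, so the recurrence over classes is not independent.

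**Figure D3:**
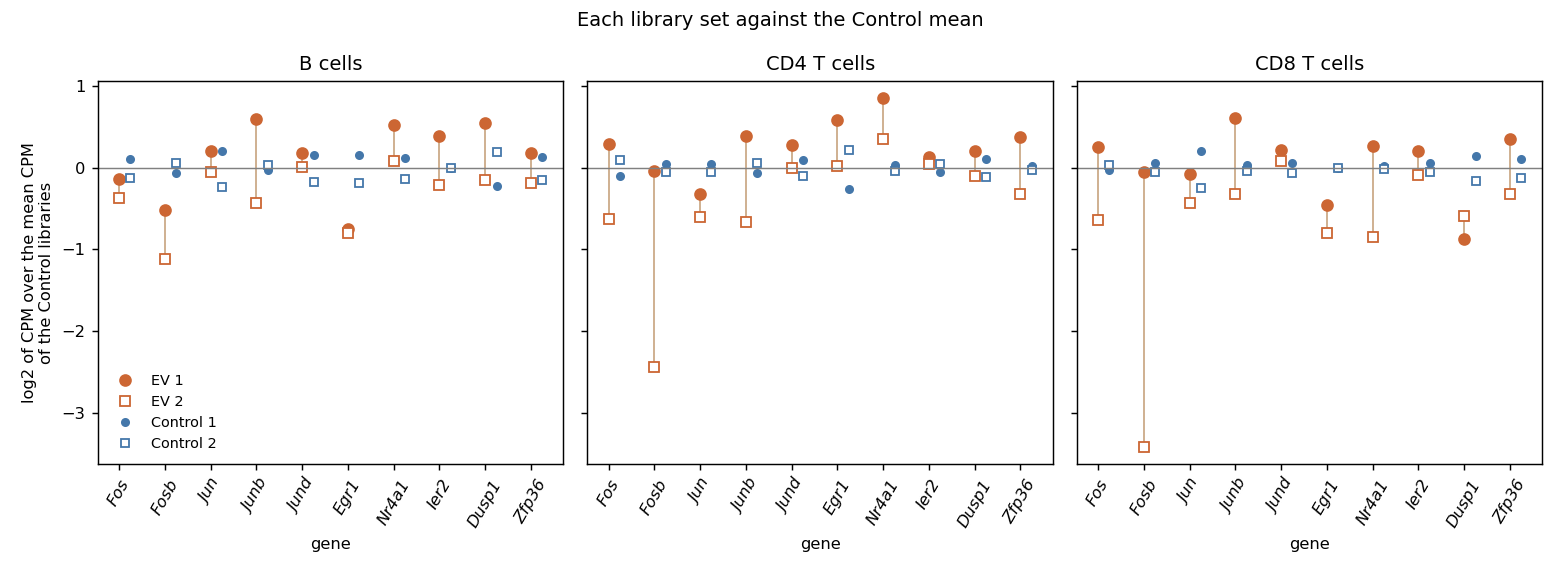
Log2 of the CPM in each library over the mean CPM of the Control libraries (vertical axis) for the 10 genes (horizontal axis) in the 3 lymphocyte classes. Orange circles and open squares are EV libraries 1 and 2, joined by a line, and small blue symbols are the Control libraries; Junb, Zfp36 and Fosb show the gap between the EV libraries, whereas those of Egr1 in B cells lie together below 0.

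Whether the EV effect differed between classes was tested as an interaction over the 16 sums of class and library, with library as a block. Between B and CD4 T cells, 2 of 10 genes differed, where 1.68% of all genes did. For Egr1 the log2 fold change was lower in B cells by 1.07 on the log2 scale (interaction -1.07, SE 0.19, adjusted p = 0.0023). For Jun it was higher in B cells by 0.55 (SE 0.12, adjusted p = 0.012). With a library left out, the Egr1 difference ranged from -1.53 to -0.70, the latter without Control library 1. The Jun difference ranged from 0.36, without Control library 2, to 0.71. The spread of the group left with 1 library cannot be measured in such fits, so no call is drawn from them. In thinned cells neither the Egr1 nor the Jun difference passed (adjusted p = 0.40 and 0.14). Between CD8 and CD4 T cells 0 of 10 genes differed by edgeR at an adjusted p under 0.05 (4 had an unadjusted p under 0.05), where 0.114% of all genes did. Between the macrophage gate and CD4 T cells 0 of 10 differed (0 also had an unadjusted p under 0.05), where 0.0997% of all genes did. The CD8 T cell interactions with the lowest p were those of Egr1 (-0.92, SE 0.20, adjusted p = 0.065) and Nr4a1 (-0.85, SE 0.23, adjusted p = 0.34).

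The B cell gate was also split into cells with an Ighd UMI, taken as naive B cells, and the rest, of which there were 117, 117, 183 and 125 per library. The second part was added after the data had been seen. In naive B cells Egr1 measured 21.6 and 17.1 CPM in the Control libraries and 11.6 and 11.4 CPM in the EV libraries, and it fell by 0.75 on the log2 scale (SE 0.13, adjusted p = 0.021). Fosb measured 38.99 and 43.7 CPM against 29.1 and 18.9 CPM there and fell by 0.78 (SE 0.17, adjusted p = 0.0495). Both EV libraries were below both Control libraries for each gene. In the other B cells, Egr1 had 16, 13, 15 and 7 UMIs, without overlap in CPM, and did not pass (-1.22, SE 0.46, adjusted p = 0.36). The difference between the naive and the other B cells was not tested.

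Per cell, the genes were sparse. In B cells thinned to 1000 UMIs each, a cell held UMIs of 1.15 and 1.00 of the 10 genes on average in the Control libraries and of 1.17 and 0.946 in the EV libraries. CD4 T cells held 0.798 and 0.791 against 0.888 and 0.660, and CD8 T cells 0.635 and 0.565 against 0.696 and 0.577. EV library 1 was highest in each class and the groups overlapped. Unthinned, the means were 2.91, 2.98, 3.51 and 2.93 in B cells, with more UMIs per cell in the EV libraries (medians of 5811 and 5615) than in the Control libraries (4142 and 4905). Cells with at least 5 of the 10 genes made up 0.186% to 0.481% of thinned B cells, at most 0.325% of thinned CD4 T cells and at most 0.238% of thinned CD8 T cells. An Egr1 UMI was found in 1.73% and 1.28% of thinned Control B cells and in 0.885% and 0.838% of thinned EV B cells (5.17%, 4.71%, 3.37% and 3.14% unthinned). The shares of both EV libraries were below those of both Control libraries. A Junb UMI was found in 13.5%, 12.9%, 18.2% and 9.97% of thinned B cells (37.9%, 43.8%, 56.5% and 37.1% unthinned). EV library 1 had the highest and EV library 2 the lowest Junb share on both scales, as in its CPM. No cell type of the node is known to lack these genes, so the share that free RNA gives was not measured. An exact permutation test of 2 libraries against 2 cannot give a p under 0.333, so none was run on the shares.

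The macrophage gate gave few UMIs, 43 to 260 of the 10 genes per library, and 5 of the genes passed the filter on low counts. Of these 0 were called at an adjusted p under 0.05 by edgeR (0 also had an unadjusted p under 0.05, and DESeq2 called 0), where 0% of all genes were called. Control and EV libraries were fully separated for 2 of these 5, Jund and Ier2, where 41.4% of all genes did not overlap. Jund measured 326 and 405 CPM in the Control libraries and 429 and 422 CPM in the EV libraries (0.19, SE 0.30). Ier2 had 0, 10, 25 and 15 UMIs. A count of 0 in Control library 1 allows up to 42.8 CPM of the raw total, from 3 UMIs of 70039. This limit is not TMM-scaled, unlike the other levels, and covers counting error only. Junb measured 172, 103, 237 and 51.4 CPM, highest in EV library 1 and lowest in EV library 2. Against CD4 T cells, the fitted levels of Junb (-0.77) and Jund (-0.41) were lower in this gate, where 37.5% of all genes differed and 17.5% were higher. That fit scaled the sums of all classes together, whereas the CPM are scaled within each class. The CPM of this gate overlapped those of CD4 T cells for Jund (379 to 496 CPM in CD4 T cells) and Junb (120 to 248 CPM in CD4 T cells). B cell markers in the gate were higher in the EV libraries (5483 and 6061 CPM) than in the Control libraries (3141 and 2927 CPM), and their part in these values was not tested.

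Other genes of the pathway were given from lists by the same fits. The lists were chosen with earlier results of these data known. Of 35 other early response genes, 32 were tested in B cells, where 1 rose and 5 fell. Of all genes tested in B cells, 1.57% rose and 0.98% fell. Egr3, a relative of Egr1, measured 60.7 and 50.2 CPM in the Control libraries and 27.9 and 29.4 CPM in the EV libraries, and it fell by 0.95 on the log2 scale (adjusted p = 0.0055). Klf4 and Klf6, zinc finger transcription factors, fell by 1.25 and 0.62 in B cells (adjusted p = 0.0075 and 0.0081). Rgs2, a brake on G protein signals, and Dusp6, a phosphatase of ERK, fell by 0.59 and 0.64 (adjusted p = 0.027 for each), and Csrnp1 rose by 0.60 (adjusted p = 0.030). In CD8 T cells 2 of 32 fell, Egr3 by 1.03 (14.3 and 16.6 CPM against 8.56 and 6.81 CPM, adjusted p = 0.0085) and Klf6 by 0.40 (adjusted p = 0.045). In CD4 T cells 1 of 31 fell, Klf6 by 0.52 (adjusted p = 0.034), while Egr3 measured 10.4 and 10.9 CPM against 17.9 and 13.0 CPM and did not pass (0.52, adjusted p = 0.18). Of all genes, 0.302% fell in CD4 T cells and 0.855% in CD8 T cells. The medians of this list were -0.06, -0.11 and -0.11 in B, CD4 T and CD8 T cells. Those of all genes tested were -0.0016, 0.00072 and 0.00033.

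Of 18 AP-1 partners, bZIP proteins that pair or compete with FOS and JUN, 17 were tested in B cells and 13 in each T cell class. In the 3 classes 0 fell, and 1, 2 and 1 rose in B, CD4 T and CD8 T cells. Of all genes, 1.57%, 0.788% and 1.34% rose and 0.98%, 0.302% and 0.855% fell in the same order. Batf, which pairs with JUN proteins at sites shared with IRF4, rose by 0.83 in CD4 T cells (34.6 and 44.5 CPM against 83.0 and 59.1 CPM, adjusted p = 0.038) and by 0.77 in CD8 T cells (32.0 and 33.0 CPM against 68.8 and 42.8 CPM, adjusted p = 0.034). Maf rose by 0.87 in CD4 T cells (34.2 and 51.8 CPM against 89.4 and 70.2 CPM, adjusted p = 0.038), and Nfil3 by 2.31 in B cells (0.716 and 0.663 CPM against 3.90 and 2.98 CPM, adjusted p = 0.013). The EV libraries were above the Control libraries in each. Of 22 upstream regulators (kinases and factors that induce the early genes), all tested in the 3 classes, 0 rose and Camk4 alone fell, in B cells (6.52 and 8.47 CPM against 3.28 and 2.59 CPM, -1.35, adjusted p = 0.021). The B cell gate also held fewer T cell marker UMIs in the EV libraries (47.8 and 48.8 CPM) than in the Control libraries (96.2 and 83.3 CPM), and Camk4 measured 445 to 552 CPM in CD4 T cells. The part of T cell RNA in the Camk4 value was not tested.

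Heat shock genes, the pair Cirbp and Rbm3 and the mitochondrial share of UMIs differed between the groups in the 3 lymphocyte classes. Both gene lists were chosen with earlier results of these data known, so their counts are a description and not independent evidence. Heat shock genes rose in the EV libraries, 10 of 13 tested in B cells, 8 of 13 in CD4 T cells and 10 of 14 in CD8 T cells, with 0 called lower and medians of 0.68, 0.75 and 0.74 on the log2 scale. For 1, 2 and 1 of the tested genes the EV libraries were both the lower ones without passing, among them Dnajb4 in CD4 T cells (-0.34, adjusted p = 0.26). The shares of all genes that rose were 1.57%, 0.788% and 1.34%. Their summed level in B cells was 1990 and 2243 CPM in the Control libraries and 3620 and 3799 CPM in the EV libraries. Hsph1, a chaperone of the HSP110 family, rose by 1.36, 1.36 and 1.26 in the 3 classes, Hspa8 by 1.22, 0.95 and 0.85, Dnaja1 by 0.99, 0.84 and 0.78, Stip1 by 0.97, 0.91 and 1.02, Hsp90aa1 by 0.64, 0.70 and 0.76, and Chordc1 by 0.59, 0.75 and 0.71. The highest adjusted p among these was 0.019. Cirbp, which is induced in the cold, fell by 1.00, 1.16 and 1.05 (adjusted p = 0.0091, 0.0075 and 0.0062), and Rbm3, also induced in the cold, fell by 0.55 in CD8 T cells (adjusted p = 0.028), with -0.63 and -0.56 in B and CD4 T cells (adjusted p = 0.053 and 0.077). The mitochondrial share of UMIs was 3.28% and 3.18% in Control B cells and 3.47% and 3.85% in EV B cells, and it was also higher in both EV libraries in the T cell classes. Summed Cirbp and Rbm3 levels were lowest in EV library 2 in each class (325, 319 and 324 CPM, against 429, 441 and 427 CPM in EV library 1), the library in which 9 or 10 of the 10 genes were below EV library 1. Heat shock sums were also higher in EV library 2 than in EV library 1. The part of these differences in the levels of the 10 genes was not tested, nor was their cause. The sources used here record no difference in handling between the groups. Effects of handling and of EVs cannot be told apart in this design.

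**Figure D4:**
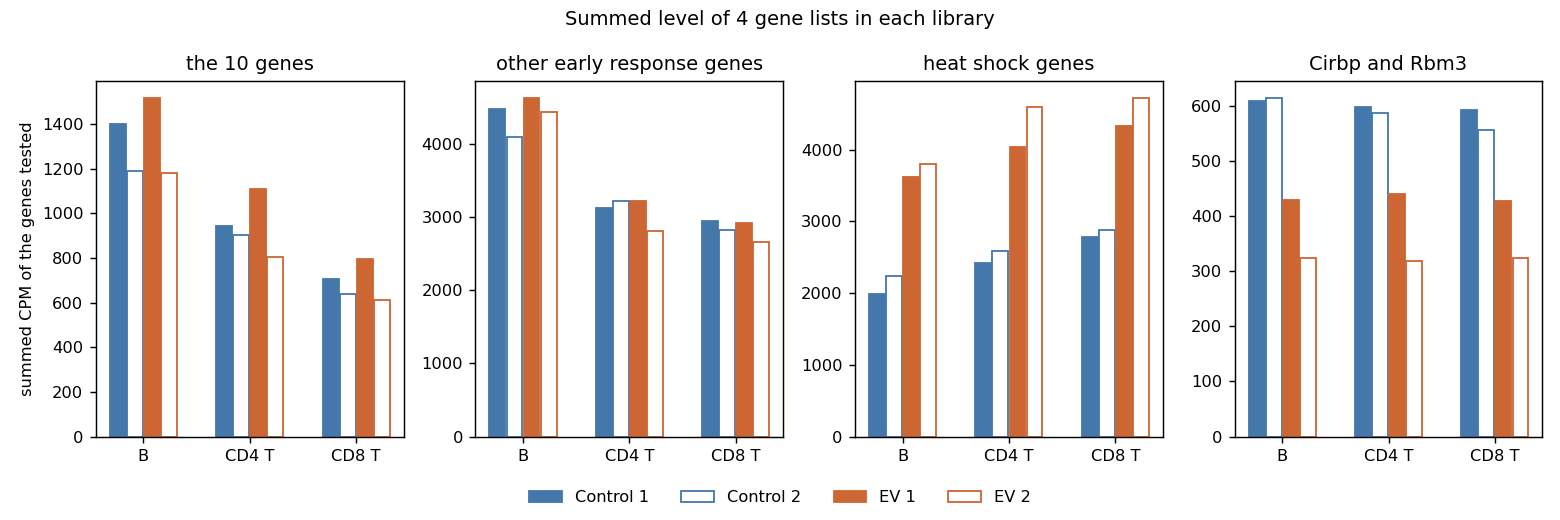
Summed level (vertical axis, CPM over the genes tested, starting at 0) of the 10 genes, the other early response genes, the heat shock genes and the pair Cirbp and Rbm3 in B, CD4 T and CD8 T cells (horizontal axis). Each bar is 1 library, blue Control and orange EV, filled for library 1 and open for library 2; heat shock sums are higher in both EV libraries, Cirbp and Rbm3 sums are lower, and sums of the 10 genes are highest in EV library 1.

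Of genes outside these lists, Rbx1, Tomm20, Pdcd10, Rab8a and Eif1a had profiles most like that of the 10 genes over the 16 sums, with Pearson r of 0.86, 0.85, 0.85, 0.84 and 0.84 among 3344 genes tested in all classes. The profile was the mean of the log2 CPM, centred within each class, of the 5 of the 10 genes that were tested in all classes (Jun, Junb, Jund, Ier2 and Zfp36). The members of the profile themselves had r of 0.24 (Jun) to 0.74 (Jund). Egr1 and Fosb are not in this profile. It ranged widest in the macrophage gate, from -0.38 in Control library 1 to 0.42 in EV library 1. In the lymphocyte classes it ranged from -0.27 to 0.28. The points share libraries, and the r values describe these 16 sums.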

How the data were processed

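Draining lymph node cells were measured by droplet 3′ single-cell RNA sequencing in 2 Control and 2 EV libraries, grouped by the labels. The authors deposited a matrix of whole UMI counts per gene and barcode for each library, aligned to mm10 with Cell Ranger 7.1.0, without normalization. The annotation release is not given in the sources used here. Libraries hold 50749656 to 70418672 UMIs. Barcodes with under 200 or over 5000 genes, over 20000 UMIs, or 10% or more mitochondrial UMIs were dropped. The study's methods name no doublet removal, and none was made; stricter gates were an alternative. Raw counts were summed per class and library and compared with edgeR 4.0.16 (R 4.3.3), with its quasi-likelihood test, two-sided, TMM factors, filterByExpr, Benjamini-Hochberg adjustment over all genes tested, and calls at an adjusted p under 0.05. CPM of genes and of the early response, heat shock and cold-inducible lists are TMM-scaled within each class, over the genes tested in it. CPM of marker sums and the limit for a count of 0 are of raw totals. An SE is the log2 fold change over the square root of F. Interactions and class levels were fitted over 16 sums with library as a block. On simulated counts with 200 changed genes, this test recovered 74%, 82%, 81% and 19% of 2-fold changes, which are 1 on the log2 scale, in the B, CD4 T and CD8 T cell gates and the macrophage gate. For changes of 2 on the log2 scale it recovered 95%, 94%, 97% and 69%. In the same order, 12, 18, 14 and 7 unchanged genes were called. Changes under 1 on the log2 scale, as most of those of the 10 genes were, were not simulated. Nor was a shift that many genes share between the libraries of a group. Genes with few UMIs are the least precise. RefSeq windows and GENCODE positions are of GRCm38. The members and lists were chosen with earlier results of these data known. Text names the 10 genes, up to 6 called genes of each other list by smallest adjusted p, the 5 genes most like the members' profile, and gate markers. DESeq2 1.42.0 and the other alternatives are under the dependence on processing. A narrower T cell gate is not reported here. Cell-level tests were not used, since cells are not replicates.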

Additional observations from a re-analysis of the deposited data

Results flagged for a closer look

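The EV effect differed between B and CD4 T cells for Egr1 and Jun by the test of the interaction. The log2 fold change of Egr1 was lower in B cells than in CD4 T cells (difference -1.07), with the EV libraries below the Control libraries in B cells and overlapping them in CD4 T cells. That of Jun was higher in B cells (difference 0.55), with overlap in B cells and both EV libraries lower in CD4 T cells. Neither difference passed in cells thinned to 1000 UMIs.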

How the results depend on the processing

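The counts of the 10 genes called by EV were small and changed with the settings. The share of all genes called moved as well and stands beside each count. In B cells (1 called, 2.55% of all genes) it was 2 with DESeq2 (3.46%), 3 without the filter on low counts (6.44%), 2 with a replicate block (8.91%), 2 with the 5% mitochondrial limit and no upper limits (5.15%), 2 in naive cells (2.71%) and 0 in the other B cells (1.41%), and 0 to 5 with a library left out (0.69% to 19.6%). In CD4 T cells (0 called, 1.09%) it was 2 without the filter (3.89%), 2 with the replicate block (6.6%), and 0 to 6 with a library left out (0.757% to 16.5%). In CD8 T cells (1 called, 2.2%) it was 0 with DESeq2 (1.32%), 3 without the filter (4.24%), 3 with the replicate block (8.29%), 0 in thinned cells (0.454%), 0 with the 5% limit (0.965%), and 1 to 8 with a library left out (1.48% to 16.9%). In the macrophage gate it was 0 throughout. The EV effect differed between CD8 and CD4 T cells for 1 gene without the filter, against 0, and for 0 to 1 with a library left out. Between B and CD4 T cells it differed for 0 genes in thinned cells, against 2, and for 1 to 2 with a library left out. The level in the macrophage gate differed from CD4 T cells for 5 genes without the filter and 4 with stricter gates, against 2. The mean number of the 10 genes per cell, EV minus Control, was 0.27 in B, 0.16 in CD4 T and 0.17 in CD8 T cells and 0.53 in the macrophage gate as deposited, against -0.016, -0.020, 0.037 and 0.15 when thinned. The cause of these changes was not tested. Fewer cells, genes or UMIs entered in thinned cells and in B cells other than naive.

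Log2 fold changes that turned direction were those of genes that were not called. In thinned cells they were -0.063 (Jun), -0.061 (Zfp36) and -0.29 (Dusp1) in B cells, -0.031 (Zfp36), -0.047 (Ier2) and -0.097 (Dusp1) in CD4 T cells and -0.059 (Zfp36) in CD8 T cells. With the 5% limit they were -0.065 (Zfp36, B cells) and 0.014 (Fos, CD8 T cells), and with stricter gates -9.4e-05 (Zfp36, B cells). In the B cells other than naive, an alternative chosen after seeing the data, they were -0.12 (Jun), -0.20 (Zfp36), -0.021 (Jund), -0.14 (Ier2), 0.52 (Fos) and -0.030 (Nr4a1). With the replicate block Junb was -0.16 in the macrophage gate. With a library left out, ranges that crossed 0 in B cells were -0.15 to 0.55 (Dusp1), -0.21 to 0.39 (Ier2), -0.12 to 0.32 (Jun), -0.43 to 0.59 (Junb), -0.049 to 0.27 (Jund) and -0.19 to 0.18 (Zfp36). In CD4 T cells they were -0.086 to 0.22 (Dusp1), -0.62 to 0.28 (Fos), -0.65 to 0.39 (Junb) and -0.31 to 0.38 (Zfp36). In CD8 T cells they were -0.63 to 0.26 (Fos), -0.075 to 0.21 (Ier2), -0.32 to 0.61 (Junb), -0.84 to 0.27 (Nr4a1) and -0.31 to 0.35 (Zfp36), and in the macrophage gate -0.45 to 0.82 (Jun), -1.29 to 0.91 (Junb) and -0.24 to 0.80 (Zfp36).

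Under RLE factors and under library sizes without abundant genes, 0 of 70 EV fold changes of single genes turned direction or changed call. RLE factors did change calls on levels between classes, to 5 genes from 6 between CD8 and CD4 T cells and to 3 from 2 between the macrophage gate and CD4 T cells. Of the values of single genes, 372 kept direction and side of the threshold under the other alternatives, 16 passed that had not, 10 no longer passed and 17 turned direction. Genes called over all genes ranged from 107 to 1392 in B cells (338 as reported), 43 to 788 in CD4 T cells (130), 40 to 1018 in CD8 T cells (270) and 0 to 65 in the macrophage gate (0, with 316 at an unadjusted p under 0.05 and 4 by DESeq2), and with a library left out from 97 to 2584, 94 to 2077, 187 to 2168 and 15 to 86.

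The labels number the libraries of both groups 1 and 2 without saying that a number is shared. Over all genes, deviations of same-numbered libraries had correlations of 0.02, 0.06, 0.08 and 0.14, so the pairing was not used. With the replicate block, calls over all genes were 1182, 788, 1018 and 53. The macrophage gate, with 42 to 91 cells a library, limits what can be seen there.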
